A study of Mus musculus with 12 samples.

Results

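The Hox genes encode the homeodomain transcription factors that assign position along the head-to-tail axis of the embryo. They were examined here in neurons made from D3, a line of mouse embryonic stem cells, and collected at day 16 of differentiation. Members were taken by name: every gene of the Hoxa, Hoxb, Hoxc and Hoxd clusters with a probe set that the platform assigns to it alone, represented by the probe set with the highest mean over the 12 arrays. This gave 37 Hox genes of 19938 genes, 10 in cluster A and 9 each in clusters B, C and D, and each had 1 such probe set. By paralog number, 7 belonged to paralogs 1 to 3, 14 to paralogs 4 to 8 and 16 to paralogs 9 to 13. Hoxb8 was not compared here. The 4 groups, with 3 biological replicates each, were neurons with knockdown of PRMT1 (siPRMT1), neurons with knockdown of PRMT8 (siPRMT8), neurons that carried a scrambled sequence (siSCR) and neurons from non-modified cells (D3). All derive from D3 cells that were aggregated into embryoid bodies without the self-renewal factor LIF, and no further treatment is recorded. The labels give neither the way the sequences were delivered nor the number of clones behind a line, so the history of a line and its knockdown cannot be told apart. Nothing in them tells if each biological replicate was differentiated on its own, and p-values then measure only the spread between these samples, which may be technical. Values are log2 signals from whole-transcript arrays with 1 colour. Levels of different Hox probe sets were not compared with each other. Levels across probe sets were compared only to choose 1 per gene, to mark the lowest 25% and to set marker averages beside all genes.

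In the embryo Hox genes are switched on in the order in which they stand in their cluster. Low paralog numbers, at the 3′ end, act in the hindbrain, middle numbers in the neck, brachial and thoracic parts of the spinal cord, and high numbers in the lumbar, sacral and tail regions. Retinoic acid acts mainly on the 3′ genes, whereas Wnt, FGF and CDX factors act on the middle ones and GDF11 on the 5′ ones. Polycomb proteins keep silent the genes that a region does not use. PRMT1 and PRMT8 place asymmetric dimethyl marks on arginine, PRMT1 in most cells and PRMT8 mainly in neurons.

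The labels were checked on the targeted genes. Prmt1 had log2 signals of 7.72, 7.95 and 7.59 in siPRMT1 neurons and 9.27, 9.2 and 9.27 in siPRMT8 neurons, against 8.84, 8.74 and 8.86 in siSCR and 8.69, 8.86 and 8.71 in D3 neurons. Prmt8 had 6.35, 6.89 and 6.67 in siPRMT1 neurons and 6.44, 6.17 and 6.44 in siPRMT8 neurons, against 6.6, 7.18 and 7.1 in siSCR and 7.37, 7.41 and 7.4 in D3 neurons. The siPRMT1 arrays were the lowest for Prmt1, and for Prmt8 the siPRMT8 arrays lay below all control arrays but overlapped those of siPRMT1. Prmt1 was 2.09-fold lower in siPRMT1 than in siSCR neurons (-1.06, SE 0.0902, adjusted p = 0.000119), and Prmt8 was 1.53-fold lower in siPRMT8 than in siSCR neurons (-0.61, SE 0.157, adjusted p = 0.0216). Prmt1 was higher in siPRMT8 than in siSCR neurons (0.43, SE 0.0902, adjusted p = 0.00872). Prmt8 read -0.32 relative to siSCR in siPRMT1 neurons as well, which did not pass (adjusted p = 0.203). Against D3, Prmt8 was lower in both siPRMT1 (-0.75, SE 0.157, adjusted p = 0.00591) and siPRMT8 neurons (-1.04, SE 0.157, adjusted p = 0.00119). It did not pass in siPRMT1 against siPRMT8 neurons (0.29, SE 0.157, adjusted p = 0.561). On the first principal component of all genes, with 55.6% of the variance, the 6 knockdown arrays lay at -28.76 to -14.23, and 5 of the 6 control arrays at 22.4 to 27.67. siSCR replicate 1 lay apart at 0.7641, between the others, and results that rest on it are given with and without it. Of the 37 Hox probe sets, 11 lay among the lowest 25% of all genes by mean value (below 5.43), of which 1 belonged to paralogs 1 to 3, 0 to paralogs 4 to 8 and 10 to paralogs 9 to 13. All 37 were tested nevertheless. No detection calls were used, so a value near the low end of the scale cannot be told apart from background, and a small difference there is no sign that a gene kept its level. By the RefSeq annotation of GRCm38.p6, 10 of the 37 genes overlap the span of another Hox gene, and for these the array cannot assign a signal to 1 of the overlapping transcripts with certainty.

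Many Hox genes were lower in the neurons of either knockdown. In such bulk samples fewer cells of a type and less RNA per cell cannot be told apart. In siPRMT1 neurons 19 of 37 were lower than in siSCR neurons at an adjusted p under 0.05 and 0 were higher, where 8.0% of all genes were lower and 4.5% higher. In siPRMT8 neurons 20 were lower than in siSCR neurons and 0 higher, with 8.9% of all genes lower and 7.11% higher. The count of 0 higher was the same in every alternative fit, and at an unadjusted p under 0.05 it was 1 (Hoxa11) in siPRMT1 and 0 in siPRMT8 neurons. Against D3, the other control, siPRMT1 neurons had 19 lower and 3 higher Hox genes, where 10.6% of all genes were lower and 8.3% higher. siPRMT8 neurons had 19 lower and 1 higher against D3, where 10.6% were lower and 8.53% higher. The median log2 difference over the 37 genes was -0.30 and -0.47 in siPRMT1 and siPRMT8 against siSCR, and -0.31 and -0.33 against D3, where the medians over all genes were 0.056, 0.025, 0.075 and 0.045. All 4 comparisons share arrays: both knockdowns were set against the same siSCR and the same D3 arrays.

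**Figure D1:**
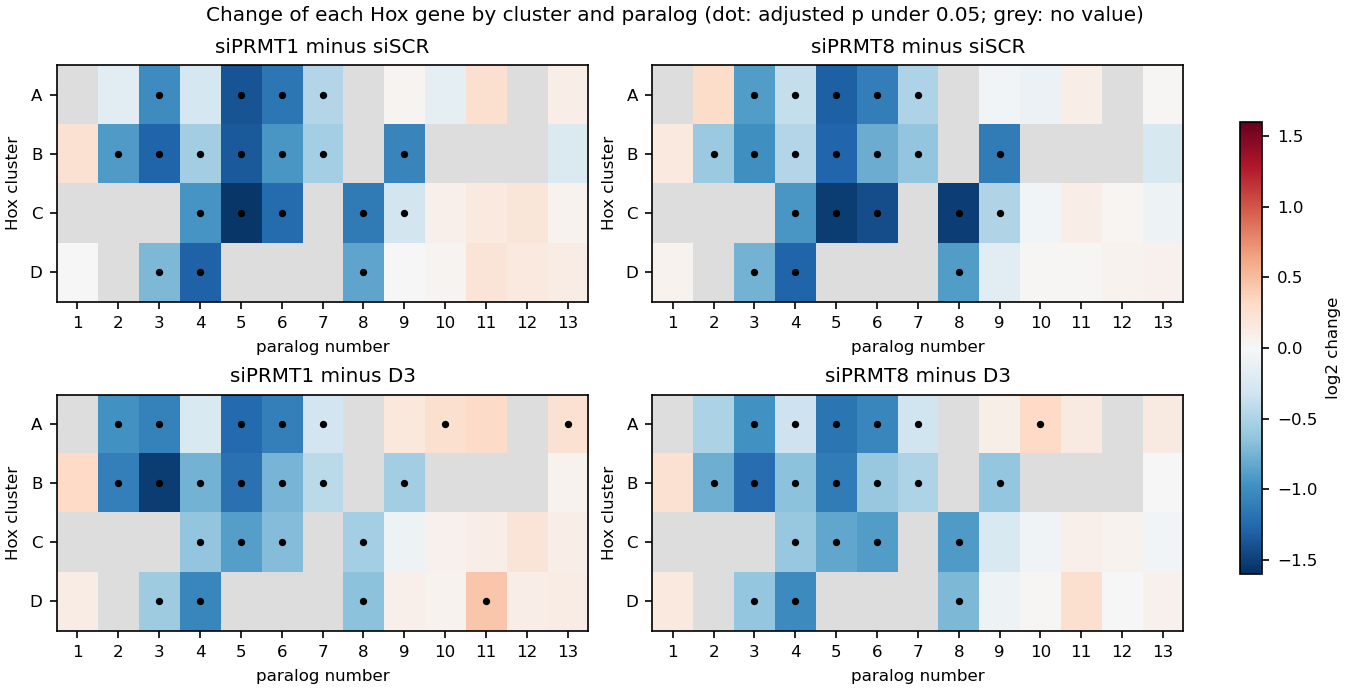
Log2 difference of each Hox gene, with the cluster on the vertical and the paralog number on the horizontal axis, in siPRMT1 (left) and siPRMT8 (right) minus siSCR (top) or minus D3 (bottom). Blue is lower and red higher in the knockdown, dots mark an adjusted p under 0.05, and grey marks positions with no gene or no value. The dots fill paralogs 3 to 8 in all 4 clusters apart from Hoxa4 in siPRMT1, and Hoxb9 is the one gene above paralog 8 that is lower in all 4 panels.

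The genes that were lower were mostly those of the middle paralog numbers. Of the 14 genes of paralogs 4 to 8, 13 were lower in siPRMT1 and 14 in siPRMT8 neurons, against either control. Of the 7 genes of paralogs 1 to 3, 4 were lower in each knockdown against siSCR, and 5 in siPRMT1 and 4 in siPRMT8 neurons against D3. Of the 16 genes of paralogs 9 to 13, 2 were lower in each knockdown against siSCR and 1 against D3. The median log2 difference of paralogs 4 to 8 was -1.04 in siPRMT1 and -1.02 in siPRMT8 against siSCR, and -0.72 and -0.77 against D3. Without siSCR replicate 1 the values against siSCR were -1.24 and -1.21. Paralogs 9 to 13 had medians between -0.01 and 0.11 in the 4 comparisons. Of these 16 probe sets 10 were among the lowest 25%, against 0 of the 14 of paralogs 4 to 8. The medians of paralogs 9 to 13 are therefore no sign that these genes kept their level. In all, 18 Hox genes were lower in all 4 comparisons, as were 5.21% of all genes. In 20 Hox genes each of the 6 knockdown arrays read below each of the 6 control arrays, which held for 7.28% of all genes.

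Among the hindbrain paralogs, Hoxb3 moved most. Hoxb3, which acts in the caudal hindbrain, read 8.16, 7.53 and 7.89 in siPRMT1 neurons and 7.99, 8.39 and 8.12 in siPRMT8 neurons, against 8.75, 9.32 and 9.36 in siSCR and 9.48, 9.34 and 9.33 in D3 neurons. The knockdown arrays did not overlap the controls. The difference from siSCR was -1.28 (SE 0.18, adjusted p = 0.00151) in siPRMT1 and -0.98 (SE 0.18, adjusted p = 0.00452) in siPRMT8 neurons, and against D3 it was -1.52 and -1.22 (adjusted p = 0.000403 and 0.00113). Hoxa3, which is also needed for the thymus and parathyroid glands, read 5.71, 5.28 and 5.67 in siPRMT1 neurons and 5.43, 5.89 and 5.66 in siPRMT8 neurons, against 6.28, 6.77 and 6.64 in siSCR and 6.45, 6.57 and 6.89 in D3 neurons. Its log2 difference from siSCR was -1.01 (SE 0.167, adjusted p = 0.00337) in siPRMT1 and -0.9 (SE 0.167, adjusted p = 0.00456) in siPRMT8 neurons. Hoxd3 is the third member of this paralog group. It read 6.11, 6.17 and 6.18 in siPRMT1 neurons and 6.0, 6.24 and 6.09 in siPRMT8 neurons, against 6.71, 6.93 and 6.97 in siSCR and 6.73, 6.71 and 6.75 in D3 neurons. The groups were again apart, with differences from siSCR of -0.72 (SE 0.0828, adjusted p = 0.000627) and -0.76 (SE 0.0828, adjusted p = 0.000563).

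Hoxb2, a direct target of the hindbrain factor EGR2, read 7.21, 6.84 and 7.29 in siPRMT1 neurons and 7.22, 7.53 and 7.54 in siPRMT8 neurons, against 8.03, 7.93 and 8.11 in siSCR and 8.16, 8.26 and 8.2 in D3 neurons. It was lower than in siSCR by 1.87-fold in siPRMT1 (adjusted p = 0.00115) and by 1.51-fold in siPRMT8 neurons (adjusted p = 0.0067). Its paralog Hoxa2, which patterns the rostral hindbrain and the hyoid arch, did not pass against siSCR. Hoxa2 read 6.5, 7.26 and 7.21 in siPRMT1 neurons and 7.3, 7.61 and 7.45 in siPRMT8 neurons, against 6.92, 7.29 and 7.29 in siSCR and 7.87, 8.15 and 7.86 in D3 neurons. Here the 3 D3 arrays stood above all others, the siPRMT8 arrays lay above all siSCR and siPRMT1 arrays, and siSCR and siPRMT1 overlapped. The difference was -0.18 (SE 0.184, adjusted p = 0.553) in siPRMT1 and 0.29 (SE 0.184, adjusted p = 0.34) in siPRMT8 against siSCR, and -0.97 (SE 0.184, adjusted p = 0.00358) and -0.51 (SE 0.184, adjusted p = 0.075) against D3. siSCR itself read -0.79 relative to D3, which did not pass (adjusted p = 0.18). The 2 measured genes of paralog 1 did not pass in any comparison: Hoxb1, which specifies a single hindbrain segment, and Hoxd1 had log2 differences of 0.01 to 0.32 in the 4 knockdown comparisons. The siPRMT8 arrays of Hoxb1 (6.96, 6.91 and 6.9) lay above all control arrays, the highest of which read 6.85 in siSCR and 6.88 in D3 neurons. Of all genes, 18.0% lay above all siSCR arrays and 24.2% above all D3 arrays in siPRMT8 neurons. The Hoxd1 probe set was among the lowest 25%.

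Paralog 4, which in the embryo marks the border of hindbrain and spinal cord, had a gene in each cluster. Hoxd4 read 5.65, 5.44 and 5.54 in siPRMT1 neurons and 5.44, 5.76 and 5.49 in siPRMT8 neurons, against 6.48, 6.96 and 7.08 in siSCR and 6.42, 6.57 and 6.75 in D3 neurons. No knockdown array reached a control array. It was 2.46-fold lower in siPRMT1 and 2.43-fold lower in siPRMT8 than in siSCR neurons (log2 -1.3, SE 0.146, adjusted p = 0.000574, and -1.28, SE 0.146, adjusted p = 0.000613). Hoxc4 read 5.54, 5.18 and 5.52 in siPRMT1 neurons and 5.52, 5.38 and 5.4 in siPRMT8 neurons, against 6.04, 6.61 and 6.46 in siSCR and 6.02, 5.9 and 6.21 in D3 neurons. Its differences from siSCR were -0.95 (SE 0.141, adjusted p = 0.00194) and -0.93 (SE 0.141, adjusted p = 0.00188). Hoxb4, known for its part in blood stem cell expansion, read 6.46, 6.34 and 6.63 in siPRMT1 neurons and 6.44, 6.65 and 6.62 in siPRMT8 neurons, against 6.94, 7.04 and 7.12 in siSCR and 7.23, 7.28 and 7.19 in D3 neurons. These groups were close in level but did not overlap, and the differences from siSCR were -0.56 (SE 0.0872, adjusted p = 0.00252) and -0.47 (SE 0.0872, adjusted p = 0.00474). Hoxa4 had the smallest difference of the 4. It read 6.61, 6.76 and 6.52 in siPRMT1 neurons and 6.41, 6.65 and 6.56 in siPRMT8 neurons, against 6.84, 7.07 and 6.84 in siSCR and 6.87, 6.87 and 6.88 in D3 neurons. It was lower in siPRMT8 (-0.38, SE 0.0887, adjusted p = 0.0145, against siSCR, -0.33, SE 0.0887, adjusted p = 0.0202, against D3) and did not pass in siPRMT1 neurons (-0.28, SE 0.0887, adjusted p = 0.056, and -0.24, SE 0.0887, adjusted p = 0.0774). Its difference between the knockdowns was 0.09 (95% interval -0.1 to 0.29, adjusted p = 0.761), so the calls do not show that they differ. The call in siPRMT8 against siSCR was lost without siPRMT8 replicate 1 (adjusted p = 0.0639) or siSCR replicate 2 (0.0656), and that against D3 without siPRMT8 replicate 1 or 3 or any 1 D3 array (adjusted p 0.0538 to 0.0884).

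Promoter sequences of RefSeq (GRCm38.p6, 250 bases before to 50 bases after an annotated transcript start) were at hand for 21 of the 37 genes, with 23 promoters. Retinoid receptors bind pairs of the hexamer AGGTCA, which was searched on both strands. The other motifs searched on both strands were the CDX motif, spelled TTTATGG, the joint motif of HOX and PBX proteins, spelled TGATNNAT, and the box near many transcription starts, spelled TATAAA. None of the 4 motifs overlapped another in these promoters. AGGTCA was found in 6 of the 9 promoters of genes that were lower than in siSCR in at least 1 knockdown (Hoxa5, Hoxb4, Hoxc4, Hoxd3, Hoxd4 and Hoxd8), in 1 of the 14 other Hox promoters (Hoxd10) and in 16.3% of the 32851 promoters in the table. TTTATGG was in 1 of 9, 0 of 14 and 2.75%, TGATNNAT in 0 of 9, 3 of 14 and 8.85%, and TATAAA in 1 of 9, 2 of 14 and 13.6%. The motifs were chosen with the expression results known, so these shares are a description without a test, and a match is neither a bound site nor a cause. The median number of CpG pairs per promoter was 14 in the 9 lower, 17.5 in the 14 others and 7 in all promoters. The 250 bases before the start of the paralog 4 genes with the hexamer, and of Hoxd10 as the gene outside the lower set that also has it, are shown 5′ to 3′ on the plus strand. Capitals mark the hexamer, which in all 4 stands in its reverse orientation. The windows are chr11:96318017-96318266 for Hoxb4, chr15:103034145-103034394 for Hoxc4, chr2:74721728-74721977 for Hoxd4 and chr2:74691641-74691890 for Hoxd10.
Hoxb4: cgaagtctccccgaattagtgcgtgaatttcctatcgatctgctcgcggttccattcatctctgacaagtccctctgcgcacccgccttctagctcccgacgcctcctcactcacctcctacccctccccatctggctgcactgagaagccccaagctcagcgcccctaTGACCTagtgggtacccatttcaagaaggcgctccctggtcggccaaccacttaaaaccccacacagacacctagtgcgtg
Hoxc4: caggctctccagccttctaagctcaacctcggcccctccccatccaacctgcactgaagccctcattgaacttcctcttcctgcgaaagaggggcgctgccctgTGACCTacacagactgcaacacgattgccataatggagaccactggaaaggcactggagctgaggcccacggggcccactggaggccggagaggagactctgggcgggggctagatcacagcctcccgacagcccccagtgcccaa
Hoxd4: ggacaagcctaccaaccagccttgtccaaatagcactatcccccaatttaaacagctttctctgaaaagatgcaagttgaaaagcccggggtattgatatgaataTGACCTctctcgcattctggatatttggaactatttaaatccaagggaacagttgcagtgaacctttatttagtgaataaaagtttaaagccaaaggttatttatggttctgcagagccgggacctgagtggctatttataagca
Hoxd10: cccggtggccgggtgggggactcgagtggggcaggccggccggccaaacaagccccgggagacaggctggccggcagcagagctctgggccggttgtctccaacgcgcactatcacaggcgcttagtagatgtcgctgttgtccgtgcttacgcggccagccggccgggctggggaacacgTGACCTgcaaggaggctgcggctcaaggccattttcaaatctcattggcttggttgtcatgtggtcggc
The hexamer begins 81 bases before the start in Hoxb4, 146 in Hoxc4, 145 in Hoxd4 and 69 in Hoxd10.

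Paralog 5 held the largest differences from siSCR in clusters A, B and C. HOXA5 and HOXC5 maintain the phrenic motor neurons that drive the diaphragm. Hoxc5 read 5.42, 5.05 and 5.32 in siPRMT1 neurons and 5.49, 5.29 and 5.15 in siPRMT8 neurons, against 6.34, 7.14 and 7.01 in siSCR and 6.23, 6.09 and 6.12 in D3 neurons. All 6 knockdown arrays lay below all 6 controls, and the 3 siSCR arrays lay above the 3 D3 arrays. It was 2.96-fold lower in siPRMT1 and 2.87-fold lower in siPRMT8 than in siSCR neurons (-1.56, SE 0.177, adjusted p = 0.000574, and -1.52, SE 0.177, adjusted p = 0.000684), and 1.84-fold and 1.78-fold lower than in D3 neurons. Hoxa5 read 6.4, 5.91 and 6.36 in siPRMT1 neurons and 6.16, 6.4 and 6.29 in siPRMT8 neurons, against 7.06, 7.91 and 7.82 in siSCR and 7.37, 7.46 and 7.56 in D3 neurons. Its differences from siSCR were -1.38 (SE 0.195, adjusted p = 0.00154) and -1.31 (SE 0.195, adjusted p = 0.00171), and from D3 -1.24 and -1.17. Hoxb5, which takes part in the neural crest supply of the gut, read 6.74, 6.49 and 6.78 in siPRMT1 neurons and 6.62, 6.73 and 6.9 in siPRMT8 neurons, against 7.64, 8.15 and 8.25 in siSCR and 7.89, 7.8 and 7.89 in D3 neurons. The spread within its groups was small beside the differences of -1.34 (SE 0.141, adjusted p = 0.000382) and -1.27 (SE 0.141, adjusted p = 0.000603) from siSCR.

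**Figure D2:**
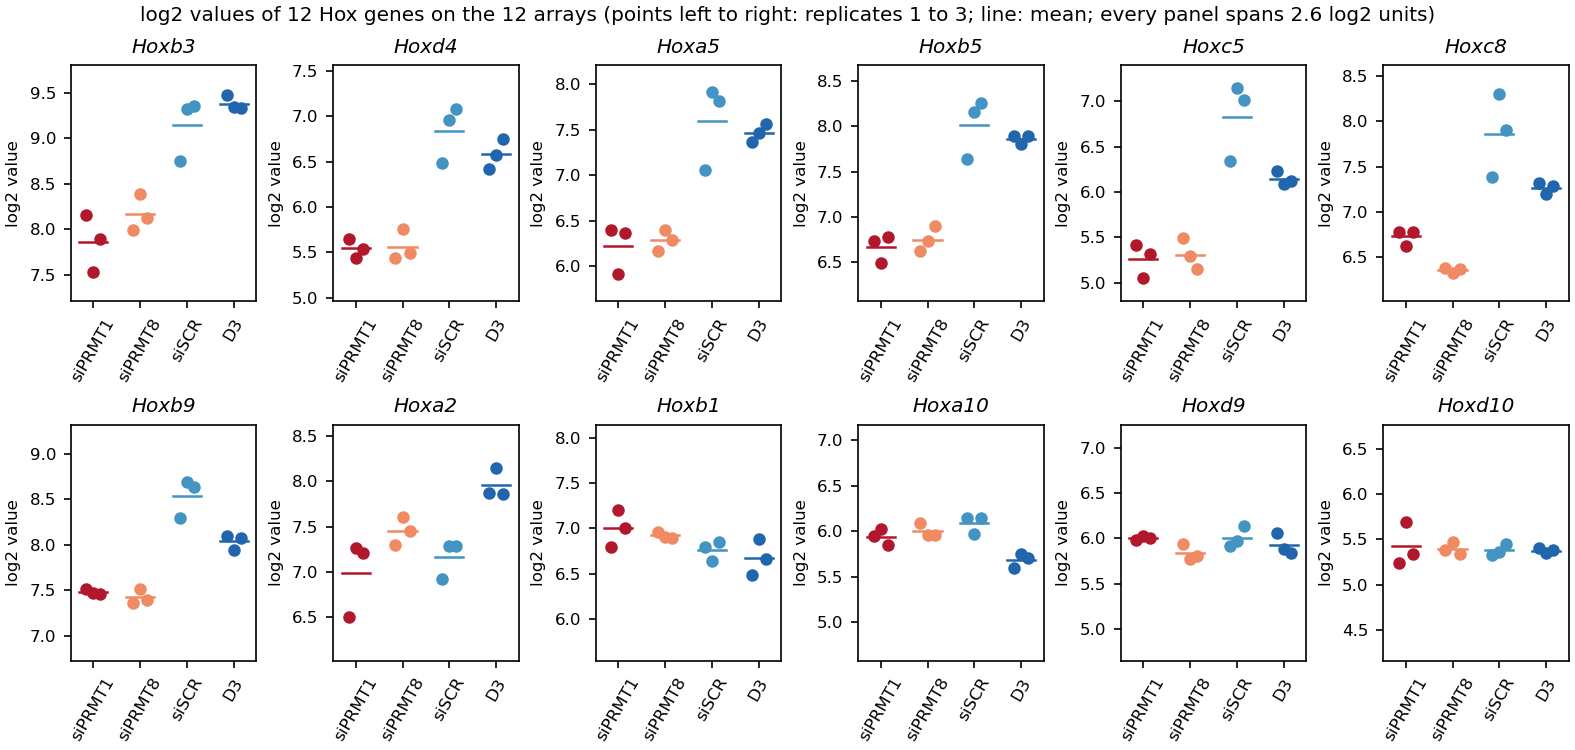
Log2 values on each of the 12 arrays for 12 Hox genes, with siPRMT1, siPRMT8, siSCR and D3 from left to right, points for replicates 1 to 3 and a line for the group mean; every panel spans 2.6 log2 units. In the first 7 panels (Hoxb3, Hoxd4, Hoxa5, Hoxb5, Hoxc5, Hoxc8, Hoxb9) the knockdown arrays lie below all control arrays, and Hoxa2 has the D3 arrays highest and the siPRMT8 arrays next. In Hoxb1 the siPRMT8 arrays lie above all control arrays and the siPRMT1 arrays overlap the controls. In Hoxa10 both knockdowns lie above D3 and overlap siSCR. In Hoxd9 and Hoxd10 both knockdowns overlap the controls.

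The 3 genes of paralog 6 were lower as well. Hoxc6, which defines the motor columns at the level of the forelimb, read 6.66, 6.5 and 6.58 in siPRMT1 neurons and 6.14, 6.64 and 6.37 in siPRMT8 neurons, against 7.43, 7.91 and 8.07 in siSCR and 7.41, 7.05 and 7.36 in D3 neurons. Its log2 differences from siSCR were -1.23 (SE 0.164, adjusted p = 0.00128) in siPRMT1 and -1.42 (SE 0.164, adjusted p = 0.000619) in siPRMT8 neurons. Its call in siPRMT1 against D3 (-0.69, SE 0.164, adjusted p = 0.0118) was lost without D3 replicate 1 (adjusted p = 0.0527). Hoxa6 read 6.31, 6.02 and 6.35 in siPRMT1 neurons and 6.16, 6.42 and 6.24 in siPRMT8 neurons, against 7.0, 7.65 and 7.52 in siSCR and 7.45, 7.16 and 7.33 in D3 neurons. Its differences from siSCR, -1.16 (SE 0.154, adjusted p = 0.00125) and -1.11 (SE 0.154, adjusted p = 0.00141), were close to those from D3, -1.09 and -1.04. Hoxb6 read 6.62, 6.5 and 6.58 in siPRMT1 neurons and 6.5, 6.78 and 6.81 in siPRMT8 neurons, against 7.36, 7.7 and 7.43 in siSCR and 7.42, 7.29 and 7.2 in D3 neurons. The differences from siSCR were -0.93 (SE 0.106, adjusted p = 0.000574) and -0.8 (SE 0.106, adjusted p = 0.00117).

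In paralog 7 the genes lower than in the controls had smaller differences. Hoxa7 read 6.68, 6.52 and 6.66 in siPRMT1 neurons and 6.61, 6.64 and 6.56 in siPRMT8 neurons, against 7.01, 7.21 and 7.04 in siSCR and 6.97, 6.91 and 6.91 in D3 neurons. These values were tight within groups, and differences of -0.47 (SE 0.0716, adjusted p = 0.0023) and -0.49 (SE 0.0716, adjusted p = 0.00171) from siSCR passed. The siPRMT1 call was lost in the fit of these 2 groups alone (adjusted p = 0.0536). Hoxb7 read 6.51, 6.51 and 6.45 in siPRMT1 neurons and 6.38, 6.42 and 6.46 in siPRMT8 neurons, against 6.75, 7.16 and 7.23 in siSCR and 6.86, 6.91 and 6.99 in D3 neurons. It differed from siSCR by -0.55 (SE 0.104, adjusted p = 0.00581) in siPRMT1 and -0.63 (SE 0.104, adjusted p = 0.00285) in siPRMT8 neurons, and from D3 by -0.43 and -0.5. The call of Hoxb7 in siPRMT1 against D3 (adjusted p = 0.0134) was lost without D3 replicate 3 (0.0568), and that against siSCR in the fit of these 2 groups alone (0.072).

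Paralog 8 was represented by Hoxc8 and Hoxd8. Hoxc8, which marks motor neurons of the caudal brachial cord, read 6.78, 6.63 and 6.78 in siPRMT1 neurons and 6.38, 6.33 and 6.37 in siPRMT8 neurons, against 7.38, 8.3 and 7.9 in siSCR and 7.32, 7.2 and 7.28 in D3 neurons. The siPRMT8 arrays were the lowest, the siPRMT1 arrays stood above them and below the controls, and siSCR replicates 2 and 3 were the highest. Against siSCR the differences were -1.13 (SE 0.167, adjusted p = 0.0019) in siPRMT1 and -1.51 (SE 0.167, adjusted p = 0.000594) in siPRMT8 neurons. Against D3 they were -0.54 (SE 0.167, adjusted p = 0.0414) and -0.91 (SE 0.167, adjusted p = 0.00302), and the siPRMT1 call was lost when any 1 of the 6 arrays of that comparison was left out (adjusted p 0.0649 to 0.117) and with the replicate number as a block (0.0591). Hoxd8 read 5.8, 5.53 and 5.91 in siPRMT1 neurons and 5.59, 5.83 and 5.65 in siPRMT8 neurons, against 6.16, 6.84 and 6.77 in siSCR and 6.49, 6.23 and 6.5 in D3 neurons. Its differences from siSCR were -0.84 (SE 0.164, adjusted p = 0.00705) and -0.9 (SE 0.164, adjusted p = 0.00424). The difference from D3 in siPRMT1 neurons, -0.66 (SE 0.164, adjusted p = 0.0152), was not called without D3 replicate 1 or 3 (adjusted p = 0.0588 each), and that from siSCR was not called in the fit of these 2 groups alone (0.0677).

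Paralog 9, the group that in the embryo covers the thoracic cord, was split. Hoxb9 read 7.51, 7.47 and 7.46 in siPRMT1 neurons and 7.36, 7.51 and 7.39 in siPRMT8 neurons, against 8.29, 8.69 and 8.64 in siSCR and 8.1, 7.94 and 8.08 in D3 neurons. The knockdown arrays differed among themselves by less than the siSCR arrays did, and none reached a control. Hoxb9 was 2.08-fold lower in siPRMT1 and 2.17-fold lower in siPRMT8 than in siSCR neurons (-1.06, SE 0.0983, adjusted p = 0.000211, and -1.12, SE 0.0983, adjusted p = 0.000285), and 1.47-fold and 1.54-fold lower than in D3 neurons. Hoxc9, which represses the forelimb motor programme in the thoracic cord, read 6.28, 6.3 and 6.3 in siPRMT1 neurons and 6.13, 6.09 and 6.13 in siPRMT8 neurons, against 6.39, 6.72 and 6.68 in siSCR and 6.42, 6.34 and 6.35 in D3 neurons. It was lower than in siSCR in both knockdowns (-0.3, SE 0.0814, adjusted p = 0.0309, and -0.48, SE 0.0814, adjusted p = 0.00326) and did not pass against D3 (-0.08, SE 0.0814, adjusted p = 0.524, and -0.25, SE 0.0814, adjusted p = 0.0515). The siPRMT1 call was lost without siPRMT1 replicate 1 or 3 or without siSCR replicate 2 or 3 (adjusted p 0.0639 to 0.136) and in the fit of these 2 groups alone (0.17).

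Hoxa9 and Hoxd9 of the same paralog group did not pass. Hoxa9 read 5.5, 5.61 and 5.45 in siPRMT1 neurons and 5.44, 5.42 and 5.45 in siPRMT8 neurons, against 5.4, 5.44 and 5.61 in siSCR and 5.44, 5.27 and 5.34 in D3 neurons. Hoxd9 read 5.98, 6.03 and 6.01 in siPRMT1 neurons and 5.94, 5.77 and 5.81 in siPRMT8 neurons, against 5.92, 5.97 and 6.14 in siSCR and 6.06, 5.88 and 5.84 in D3 neurons. In both genes each knockdown overlapped siSCR, whereas the siPRMT1 arrays lay above all D3 arrays in Hoxa9 and above all siPRMT8 arrays in Hoxd9. The differences from siSCR were 0.04 (95% interval -0.12 to 0.2, adjusted p = 0.763) and -0.04 (95% interval -0.21 to 0.12, adjusted p = 0.762) in Hoxa9, and -0.00 (95% interval -0.18 to 0.17, adjusted p = 0.982) and -0.17 (95% interval -0.35 to 0.01, adjusted p = 0.188) in Hoxd9, siPRMT1 before siPRMT8. Differences of the size of Hoxb9 lay outside these intervals. The mean of Hoxa9 over the 12 arrays, 5.45, was however close to the bound of the lowest 25% (5.43). Its narrow interval is therefore no sign that the gene kept its level.

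The 12 genes of paralogs 10 to 13, which pattern the lumbar and tail regions, the limbs and the urogenital tract, gave no call against siSCR. Their log2 differences from siSCR were -0.23 (Hoxb13) to 0.26 (Hoxa11) in siPRMT1 and -0.26 (Hoxb13) to 0.11 (Hoxc11) in siPRMT8 neurons. Of these 12 probe sets, 10 were among the lowest 25%, all but Hoxa10 and Hoxd11. Hoxa10, a regulator of the lumbar spine and the uterus, was higher than in D3 in both knockdowns. It read 5.95, 6.02 and 5.85 in siPRMT1 neurons and 6.09, 5.96 and 5.96 in siPRMT8 neurons, against 6.15, 5.97 and 6.14 in siSCR and 5.6, 5.75 and 5.7 in D3 neurons. All 3 D3 arrays lay below every other array, and the differences from D3 were 0.26 (SE 0.0768, adjusted p = 0.0351), 0.32 (SE 0.0768, adjusted p = 0.0123) and, for siSCR, 0.41 (SE 0.0768, adjusted p = 0.0977). In siPRMT1 neurons Hoxa13 (0.24, SE 0.0723, adjusted p = 0.04) and Hoxd11 (0.44, SE 0.0981, adjusted p = 0.00883) were also higher than in D3. The Hoxa10 and Hoxa13 calls in siPRMT1 were each lost without siPRMT1 replicate 1 or 2 or without any 1 D3 array (adjusted p 0.0532 to 0.134), with the replicate number as a block (0.0612 and 0.0545), after quantile normalization (0.0623 and 0.171) and in the fit of these 2 groups alone (0.0651 and 0.101), and that of Hoxa13 also with a trended robust variance (0.062) or array weights (0.0508), and that of Hoxa10 in siPRMT8 without siPRMT8 replicate 1 (0.0571) or D3 replicate 1 (0.0612).

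**Figure D3:**
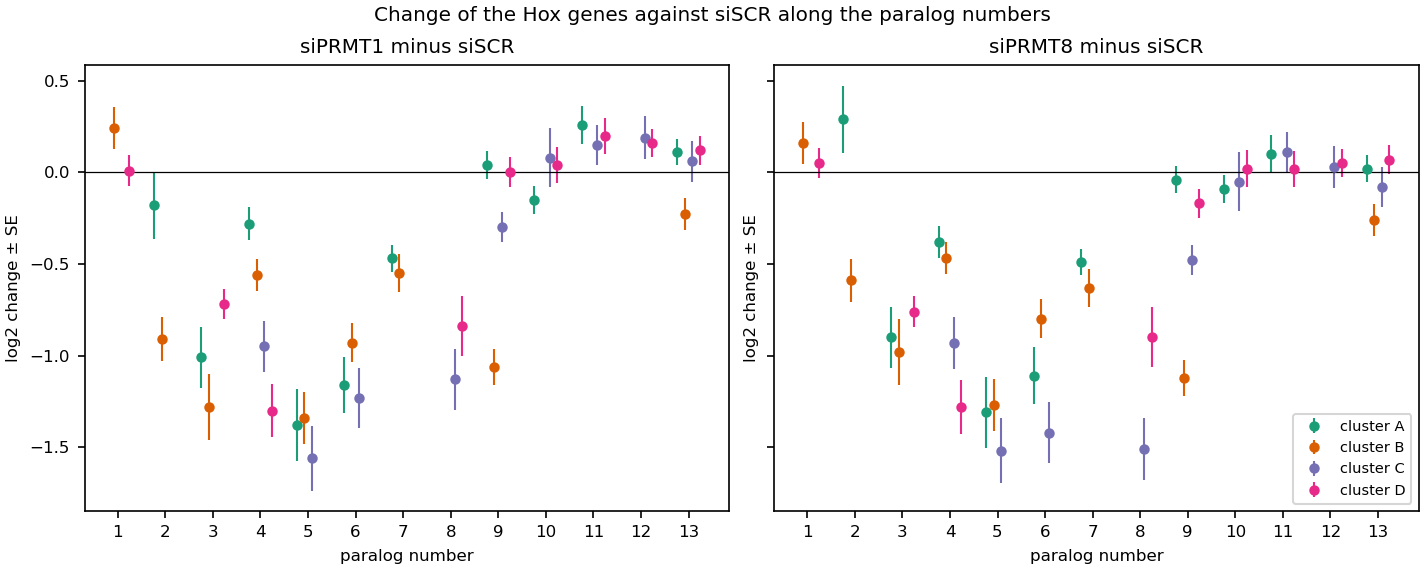
Log2 difference from siSCR of each Hox gene in siPRMT1 (left) and siPRMT8 neurons (right) on the vertical axis, by paralog number on the horizontal axis; points are genes, colours are clusters and bars are SE. Paralogs 3 to 8 lie between -1.56 (Hoxc5 in siPRMT1) and -0.28 (Hoxa4 in siPRMT1), Hoxb2 and Hoxb9 lie within that range, and paralogs 10 to 13 lie between -0.26 and 0.26.

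Set out by cluster, 4 of 10 genes of cluster A, 7 of 9 of cluster B, 5 of 9 of cluster C and 3 of 9 of cluster D were lower in siPRMT1 than in siSCR neurons. In siPRMT8 neurons the counts were 5, 7, 5 and 3. In every cluster all measured genes of paralogs 3 to 8 were lower, apart from Hoxa4 in siPRMT1 neurons. Within paralogs 4 to 8 the median difference from siSCR was -0.82, -0.75, -1.18 and -1.07 in clusters A, B, C and D in siPRMT1, and -0.80, -0.71, -1.46 and -1.09 in siPRMT8 neurons. Against D3 the same medians were -0.70, -0.75, -0.66 and -0.85 in siPRMT1 and -0.69, -0.64, -0.86 and -0.87 in siPRMT8 neurons. The differences between clusters were not tested. Of the 20 genes lower than in siSCR in at least 1 knockdown, 12 overlap no other Hox gene in the annotation, and these include Hoxb5, Hoxb9, Hoxc5, Hoxc6 and Hoxc8.

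The clusters also hold microRNA genes and long noncoding RNAs. MicroRNAs of the miR-10 and miR-196 families are made from Hox clusters and are known to repress Hox messenger RNAs. They are named here with the seed, bases 2 to 8 of the mature strand, in capitals, because the members that fell and those that did not belong to different seed families. The sequences are RefSeq's (GRCm38.p6), 5′ to 3′. miR-10a-5p comes from chr11:96317186-96317208 in the Hoxb cluster and miR-10b-5p from chr2:74726074-74726096 in the Hoxd cluster, both on the plus strand. miR-196b-5p comes from chr6:52230129-52230150 on the minus strand in the Hoxa cluster. miR-196a-5p comes from the plus strand of both chr11:96265187-96265208 (Mir196a-1, Hoxb cluster) and chr15:102973365-102973386 (Mir196a-2, Hoxc cluster).
mmu-miR-10a-5p: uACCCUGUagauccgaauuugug
mmu-miR-10b-5p: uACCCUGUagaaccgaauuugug
mmu-miR-196a-5p: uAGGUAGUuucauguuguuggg
mmu-miR-196b-5p: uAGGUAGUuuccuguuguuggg
The arrays read RNA from the microRNA gene, mostly precursor or host transcript, and not the mature strand.

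Mir10b read 2.88, 2.67 and 3.04 in siPRMT1 neurons and 2.68, 2.97 and 3.2 in siPRMT8 neurons, against 4.44, 5.15 and 4.81 in siSCR and 4.62, 3.75 and 4.19 in D3 neurons. It was 3.84-fold lower in siPRMT1 and 3.6-fold lower in siPRMT8 than in siSCR neurons (-1.94, SE 0.222, adjusted p = 0.000583, and -1.85, SE 0.222, adjusted p = 0.000765), and 2.5-fold and 2.35-fold lower than in D3 neurons. Mir10a read 3.55, 2.86 and 3.08 in siPRMT1 neurons and 2.76, 3.33 and 3.64 in siPRMT8 neurons, against 3.54, 4.44 and 4.43 in siSCR and 4.3, 3.73 and 3.85 in D3 neurons. It was lower than in siSCR in both (-0.98, SE 0.279, adjusted p = 0.0401, and -0.89, SE 0.279, adjusted p = 0.0487), with siSCR replicate 1 among the knockdown values, and did not pass against D3 (-0.8, SE 0.279, adjusted p = 0.0657, and -0.72, SE 0.279, adjusted p = 0.0972). In the annotation Mir10b lies inside the spans of Hoxd3 and Hoxd4 and Mir10a inside that of Hoxb3, all of which were lower too, so their signals are not independent of these genes. Both probe sets were among the lowest 25%. Mir196a-1, Mir196a-2, Mir196b and Mir615 did not pass against siSCR in either knockdown, with Mir196b at 0.38 (SE 0.114, adjusted p = 0.0371) in siPRMT1 against D3.

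**Figure D4:**
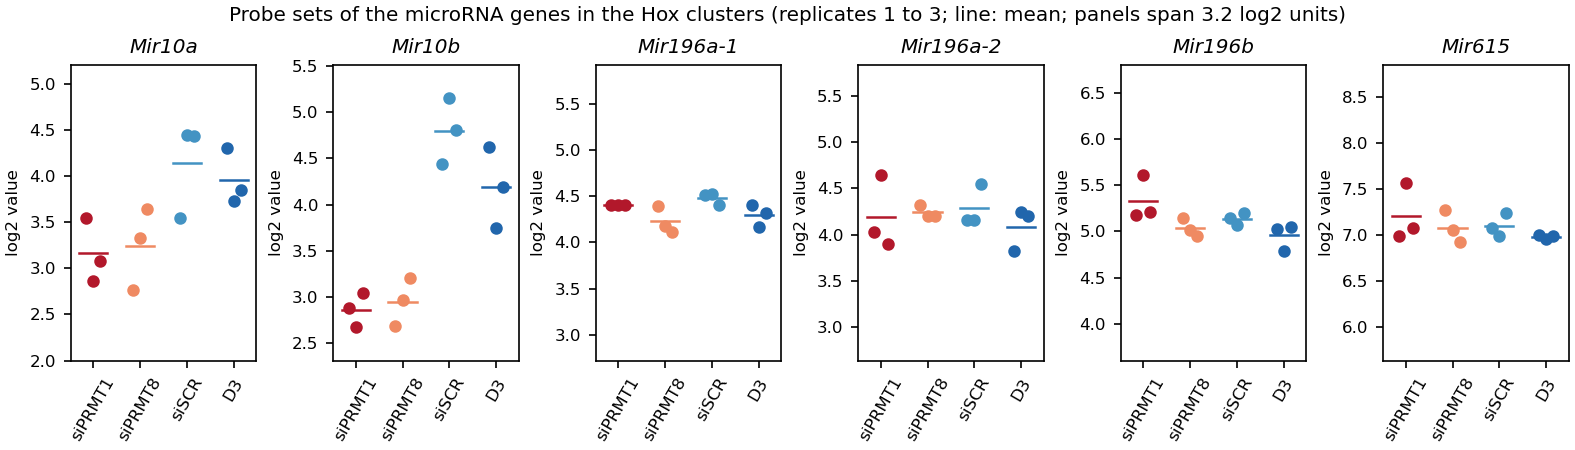
Log2 values on each array for the probe sets of the 6 microRNA genes of the Hox clusters, with siPRMT1, siPRMT8, siSCR and D3 from left to right, points for replicates 1 to 3 and a line for the mean; every panel spans 3.2 log2 units. Mir10b has no knockdown array above 3.2 and no control array below 3.75, and siSCR replicate 1 of Mir10a lies at 3.54 among the knockdown arrays. In Mir196b the siPRMT1 arrays (5.18 to 5.61) lie above the D3 arrays (4.79 to 5.05). In Mir196a-1 the siPRMT8 arrays (4.4 at most) lie just below the siSCR arrays (4.41 at least). In Mir196a-2 and Mir615 each knockdown overlaps both controls.

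Of the 10 other transcripts measured inside the clusters (of 31 annotated there), 3 were lower than in siSCR in each knockdown: Mir10a, Mir10b and the long noncoding RNA 5730596B20Rik, which lies inside the span of Hoxa3 (-0.65, SE 0.0872, adjusted p = 0.00128, in siPRMT1 and -0.51, SE 0.0872, adjusted p = 0.00325, in siPRMT8). Among all genes 8.0% and 8.9% were lower in these comparisons. Hoxaas2, another long noncoding RNA of cluster A, read 7.2, 6.88 and 7.51 in siPRMT1 neurons and 7.42, 7.8 and 7.48 in siPRMT8 neurons, against 7.23, 7.39 and 7.54 in siSCR and 8.31, 8.26 and 8.35 in D3 neurons. The 3 D3 arrays stood above all others, and the other groups overlapped. It was lower than in D3 in siPRMT1 (-1.11, SE 0.145, adjusted p = 0.000588), siPRMT8 (-0.74, SE 0.145, adjusted p = 0.00447) and siSCR neurons (-0.92, SE 0.145, adjusted p = 0.0435). Outside the clusters, the 3 nearest protein-coding genes on each side were looked up, of which 21 of 24 were measured. In siPRMT1 neurons 0 of these were lower and 1 higher than in siSCR (Cbx1, on the Hoxb1 side, 0.37, SE 0.0659, adjusted p = 0.00482), and 2 lower and 2 higher had an unadjusted p under 0.05. In siPRMT8 neurons 3 were lower (Skap2, Calcoco2 and Ttll6, -0.45, -0.33 and -0.66) and 4 higher (Cbx1, Cbx3, Cbx5 and Mtx2, 0.46, 0.33, 0.28 and 0.25). Of all genes 8.0% were lower and 4.5% higher than in siSCR in siPRMT1, and 8.9% and 7.11% in siPRMT8 neurons. Against D3, 0 of the 21 were lower in either knockdown, where 10.6% of all genes were lower in each. Skap2, Calcoco2 and Ttll6 read -0.27, 0.01 and -0.26 there in siPRMT8 neurons. Of the 21, 1 was higher than in D3 in siPRMT1 and 4 in siPRMT8 neurons, where 8.3% and 8.53% of all genes were higher. At an unadjusted p under 0.05, 1 and 2 of the 21 were lower than in D3 in limma. The 3 Cbx genes encode the heterochromatin proteins of the HP1 family. Evx1 and Evx2, the homeobox genes at the 5′ ends of clusters A and D, did not pass (0.08 and 0.19 in siPRMT1, 0.02 and 0.08 in siPRMT8).

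The scrambled line and the non-modified cells were compared to see how far the 2 controls differ. No Hox gene passed in siSCR against D3, where 0.0552% of all genes were lower and 0.0301% higher (0.0853% in all), whereas 12 of the 37 had an unadjusted p under 0.05, as did 8.16% of all genes. In 9 Hox genes the siSCR arrays lay above all D3 arrays and in 3 below them, as they did in 1994 and 1601 of the 19938 genes. The largest difference in size was that of Hoxa2 (-0.79, adjusted p = 0.18). Among genes that read higher in siSCR, the largest differences were in cluster C, with 0.69 (SE 0.177, adjusted p = 0.235) for Hoxc5, 0.59 (SE 0.167, adjusted p = 0.27) for Hoxc8 and 0.53 (SE 0.164, adjusted p = 0.329) for Hoxc6, followed by Hoxb9 (0.5, SE 0.0983, adjusted p = 0.111). Without siSCR replicate 1, 3 genes were higher in siSCR: Hoxc5 (0.93, adjusted p = 0.0216), Hoxc8 (0.84, 0.0178) and Hoxb9 (0.63, 0.0144). With array weights 6 were higher (Hoxa10, Hoxb9, Hoxc5, Hoxc6, Hoxc8 and Hoxc9) and Hoxa2 was lower.

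No Hox gene passed between the knockdowns. In siPRMT1 against siPRMT8 neurons 0 of 37 passed in limma, where 0.0351% of all genes were lower and 0.0502% higher (0.0853% in all), and 3 had an unadjusted p under 0.05 (Hoxa2, Hoxb2 and Hoxc8), as did 10.4% of all genes. The count was 0 under every alternative run. The median of the 37 differences was 0.05, and they reached from -0.46 (95% interval -0.86 to -0.06, adjusted p = 0.419) in Hoxa2 to 0.37 (95% interval 0.01 to 0.73, adjusted p = 0.472) in Hoxc8. Hoxb2 stood at -0.32 (95% interval -0.57 to -0.06, adjusted p = 0.394) and Hoxb3 at -0.31 (95% interval -0.7 to 0.09, adjusted p = 0.596). For the 3 genes of paralog 5 the intervals were narrower in relation to their differences from siSCR, with -0.07 (95% interval -0.49 to 0.36, adjusted p = 0.938), -0.08 (95% interval -0.38 to 0.23, adjusted p = 0.885) and -0.05 (95% interval -0.43 to 0.34, adjusted p = 0.955) for Hoxa5, Hoxb5 and Hoxc5. A difference inside such an interval cannot be told from none with 3 arrays per group.

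In Hox paralogs 4 to 8 siSCR replicate 1 lay below the other siSCR arrays and near the D3 arrays. The mean of paralogs 4 to 8, taken relative to the D3 mean of each gene, was -0.67, -0.87 and -0.69 in the siPRMT1 and -0.84, -0.69 and -0.77 in the siPRMT8 arrays, against -0.08, 0.43 and 0.35 in the siSCR and 0.02, -0.06 and 0.04 in the D3 arrays. In siSCR replicate 1 all 14 of these genes read below both other siSCR arrays, and all 14 read above all 6 knockdown arrays, where 17.6% of all genes did. The median step between siSCR replicate 1 and the mean of the other 2 siSCR arrays was -0.55. For paralogs 1 to 3 the array means were -0.72, -0.74 and -0.59 in siPRMT1 and -0.64, -0.43 and -0.51 in siPRMT8, against -0.27, -0.10 and -0.04 in siSCR and -0.07, 0.04 and 0.03 in D3 neurons. For paralogs 9 to 13 every array lay between -0.05 and 0.18. The Hox counts without this array were 20 in siPRMT1 and 20 in siPRMT8 against siSCR, all lower.

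**Figure D5:**
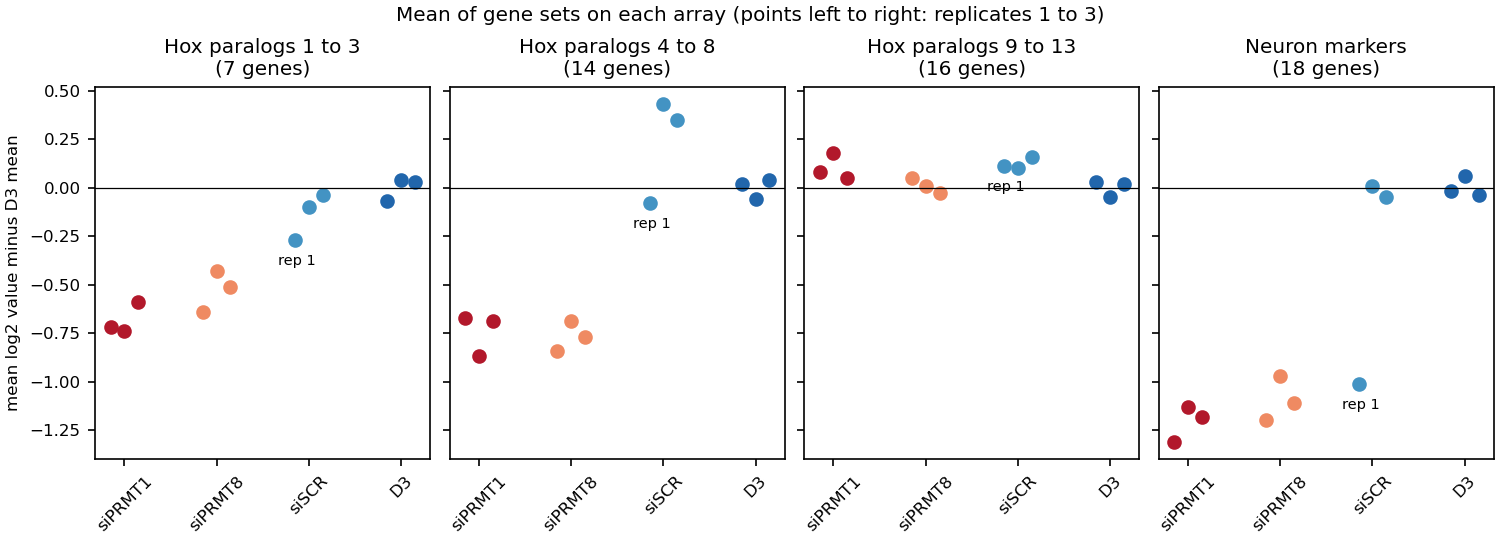
Mean log2 value on each array, relative to the D3 mean of each gene, for Hox paralogs 1 to 3, 4 to 8 and 9 to 13 and for 18 neuron markers, with siPRMT1, siPRMT8, siSCR and D3 from left to right and siSCR replicate 1 marked. In the neuron markers siSCR replicate 1 lies at -1.01 among the knockdown arrays, whereas in Hox paralogs 4 to 8 it lies at -0.08, above all knockdown arrays.

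Of the marker lists for cell types that such cultures can hold, those of neurons and astrocytes had the most genes lower in the knockdowns. The 18 neuron markers averaged 8.14 to 8.48 in the 6 knockdown arrays and 8.44 to 9.51 in the 6 control arrays on the log2 scale, where all genes averaged 6.82 to 6.85, and the 8 pluripotency markers averaged 9.57 to 10.61 over the 12 arrays. For the counts that follow, 8.0% of all genes were lower and 4.5% higher than in siSCR in siPRMT1, and 8.9% and 7.11% in siPRMT8 neurons. Against D3, 10.6% of all genes were lower in each knockdown, and 8.3% and 8.53% were higher. Of 18 neuron markers, 14 were lower and 0 higher in siPRMT1 and 11 lower and 1 higher in siPRMT8 than in siSCR neurons, and 16 were lower in each against D3. On the same relative scale their mean was -1.31 to -1.13 in the siPRMT1 and -1.20 to -0.97 in the siPRMT8 arrays, against -1.01 in siSCR replicate 1 and -0.05 to 0.06 in the other 5 control arrays. The synaptic gene Snap25 read 8.85, 10.47 and 10.34 in siSCR neurons, so that replicate 1 alone was low. In siSCR replicate 1, 14 of 14 Hox genes of paralogs 4 to 8 read above all knockdown arrays, as did 17.6% of all genes. The same held for 9 of 18 neuron, 7 of 9 astrocyte and 8 of 11 mesenchymal markers. Among progenitor and pluripotency markers 2 of 8 and 0 of 8 did. Of 9 astrocyte markers, 7 were lower and 1 higher in each knockdown against either control, with array means of -0.97 to -0.68 in siPRMT1 and -0.91 to -0.57 in siPRMT8, against -0.20, 0.21 and 0.18 in siSCR and -0.01 to 0.01 in D3 neurons. Of 11 mesenchymal markers, 4 were lower and 1 higher than in siSCR in each knockdown. Of 8 progenitor markers, 1 was lower and 1 higher in siPRMT1 and 3 were higher in siPRMT8 neurons, and of 8 pluripotency markers 0 passed against siSCR in limma, with 0 at an unadjusted p under 0.05. Against D3, 1 of these, the pluripotency factor gene Pou5f1, was higher in siPRMT1 (0.66, SE 0.109, adjusted p = 0.00166) and in siPRMT8 neurons (0.54, SE 0.109, adjusted p = 0.00518). The part of these changes in the Hox result was not tested.

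Partners of the Hox proteins were examined beside them. The TALE homeodomain proteins of the MEIS and PBX families bind DNA together with HOX proteins. Of 8 measured of 9, 1 was lower in siPRMT1 and 0 in siPRMT8 than in siSCR neurons in limma, and 2 and 1 at an unadjusted p under 0.05. Of all genes, 8.0% and 8.9% were lower in these comparisons, and 27.9% and 29.5% had an unadjusted p under 0.05 in either direction. Meis1 read 9.39, 9.44 and 9.51 in siPRMT1 neurons and 9.66, 9.97 and 9.81 in siPRMT8 neurons, against 9.73, 10.15 and 10.05 in siSCR and 10.39, 10.4 and 10.37 in D3 neurons. The siPRMT1 arrays were the lowest and the D3 arrays the highest, and the differences were -0.53 (SE 0.105, adjusted p = 0.00806) in siPRMT1 and -0.16 (SE 0.105, adjusted p = 0.35) in siPRMT8 against siSCR. Against D3, Meis1 (-0.94 and -0.57), Meis2 (-0.89 and -0.62) and Pbx3 (-1.03 and -0.81) were lower in siPRMT1 and siPRMT8, and Meis3 (-0.32) in siPRMT1 neurons. Among all genes 10.6% were lower than in D3 in each knockdown. In siSCR replicate 1, 0 of the 8 read above all knockdown arrays.

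Of 15 measured of 17 regulators that act upstream of Hox genes in the embryo, 2 were lower and 1 higher in siPRMT1, and 2 lower and 2 higher in siPRMT8 than in siSCR neurons, which is near the shares of all genes given above (8.0% and 4.5%, 8.9% and 7.11%). Against D3, 2 were lower and 3 higher in siPRMT1 and 1 lower and 2 higher in siPRMT8 neurons. The lower ones against siSCR were Rarb and Rara, 2 of the 3 retinoic acid receptors. Rarb, itself induced by retinoic acid, read 6.18, 6.16 and 6.19 in siPRMT1 neurons and 6.38, 6.61 and 6.5 in siPRMT8 neurons, against 6.84, 6.85 and 6.76 in siSCR and 6.68, 6.48 and 6.5 in D3 neurons. It was lower than in siSCR in both (-0.64, SE 0.0757, adjusted p = 0.000696, and -0.32, SE 0.0757, adjusted p = 0.014), and against D3 it passed in siPRMT1 (-0.38, SE 0.0757, adjusted p = 0.00472) but not in siPRMT8 neurons (-0.06, SE 0.0757, adjusted p = 0.617). Rara differed from siSCR by -0.47 (SE 0.119, adjusted p = 0.0236) and -0.44 (SE 0.119, adjusted p = 0.0271). The third receptor, Rarg, did not pass against siSCR (0.16 and 0.08) and was higher than in D3 (0.74, SE 0.0955, adjusted p = 0.00055, and 0.66, SE 0.0955, adjusted p = 0.000984). Cyp26b1, whose product breaks down retinoic acid, read 7.05, 7.61 and 7.37 in siPRMT1 neurons and 7.62, 7.57 and 7.44 in siPRMT8 neurons, against 6.8, 6.53 and 6.66 in siSCR and 7.06, 7.43 and 7.01 in D3 neurons. It was higher than in siSCR in both knockdowns (0.68, SE 0.142, adjusted p = 0.0101, and 0.88, SE 0.142, adjusted p = 0.00255) and did not pass against D3 (0.17 and 0.38). Cyp26a1, from the same list, did not pass against siSCR. Its means were 6.43 in siPRMT1 and 6.68 in siPRMT8 neurons, against 6.4 in siSCR and 6.09 in D3 neurons. Aldh1a2, whose product makes retinoic acid, did not pass against siSCR (-0.07 and -0.31) and was lower than in D3 (-0.46, SE 0.144, adjusted p = 0.0459, and -0.69, SE 0.144, adjusted p = 0.00618). Cdx2 was higher in siPRMT8 neurons (0.32, SE 0.0975, adjusted p = 0.0421, against siSCR), with a probe set among the lowest 25%.

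Of 19 Polycomb and Trithorax genes and related demethylases, 0 passed in siPRMT1 and 2 were higher in siPRMT8 against siSCR, where 7.11% of all genes were higher: Ezh2 (0.27, SE 0.0664, adjusted p = 0.0164) and Cbx2 (0.72, SE 0.182, adjusted p = 0.0203). In siPRMT1 neurons these read 0.13 and 0.58 (adjusted p = 0.229 and 0.0554), and at an unadjusted p under 0.05 the list had 1 lower and 1 higher gene there. Against D3, 2 of the 19 were lower and 0 higher in siPRMT1, and 1 was lower and 1 higher in siPRMT8 neurons. Among all genes 10.6% were lower in each, and 8.3% and 8.53% higher. Of 13 measured of 14 genes that mark the forebrain, midbrain and rostral hindbrain, 2 were higher than in siSCR in siPRMT1 and 3 in siPRMT8 neurons, and 0 lower. Among all genes 4.5% and 7.11% were higher in these comparisons. Otx1 (0.6, SE 0.124, adjusted p = 0.00906, and 0.56, SE 0.124, adjusted p = 0.0111) and Lhx2 (0.58, SE 0.145, adjusted p = 0.0233, and 0.53, SE 0.145, adjusted p = 0.027) were higher in both and En2 in siPRMT8 (0.52, SE 0.114, adjusted p = 0.0104), and none of these 3 passed against D3. Against D3, 1 of the 13 genes was lower and 1 higher in each knockdown. Of 7 measured of 8 motor neuron genes, Isl1 (0.51 and 0.44) and Slc5a7 (0.45 and 0.36) were higher and Phox2a (-0.65 and -0.66) lower than in siSCR, while Mnx1 did not pass (-0.1 and -0.25).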

How the data were processed

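The 12 deposited arrays were analysed from the table of log2 values that the authors deposited, with 1 value for each of 35556 probe sets. Their range, 0.966 to 13.54, gave the scale. How background was corrected and values normalized before deposit is not stated in the labels. Biotin-labelled single-stranded cDNA was hybridised, per the labels' protocols. Array medians differed by at most 0.023, and nothing was added. Probe sets with 1 symbol in the platform annotation (21789, where 1621 had several and 12146 none) were named, and symbols were updated through RefSeq (GRCm38.p6, 21698 matched). A gene was represented by its probe set with the highest mean, which left 19938 genes, and no low values were filtered out, so that every Hox gene was tested.

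limma 3.58.1 under R 4.3.3 fitted 4 group means to all 12 arrays by lmFit and eBayes, which left 8 residual degrees of freedom, with Benjamini-Hochberg adjustment over all genes and a threshold of 0.05. Standard errors (SE) use the moderated variance. "Passed", "rose", "fell", "lower" and "higher" used of a gene with a test refer to this threshold. The fit was tested on simulated data. The number of arrays limits the precision. Further scripts used Python 3.11.15, pandas 2.3.3 and SciPy 1.17.1.

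The members, gene lists, motifs and the rule for named genes were chosen with earlier results of these data known. The rule gives array values for Hox genes that passed in a knockdown against both controls or between the knockdowns, for the most changed gene of each cluster and for genes that did not pass but share a paralog number with one that did. Of other lists it names up to 4 members that passed against siSCR and single members with a described role. Same-numbered arrays deviated together (correlation over 0.1) in all 3 pairs of no comparison, so replicate numbers were not taken to pair arrays. Alternatives were quantile normalization, median centring, a filter at the lowest 25%, 2-group fits, means over a gene's probe sets, array weights (whose estimation stopped before it converged), a robust variance with a trend, a replicate block and leaving out each array.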

Additional observations from a re-analysis of the deposited data

How the results depend on the processing

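The counts of Hox genes that passed stayed within 1.5 times the reported ones under the alternatives run, except in siSCR against D3. There the count was 0 as reported, 7 with array weights, whose estimation stopped before it converged, and 3 without siSCR replicate 1. When 1 array was left out, 18 to 20 passed in siPRMT1 and 19 to 20 in siPRMT8 against siSCR, 17 to 22 and 18 to 20 against D3, 0 to 3 in siSCR against D3 and 0 in siPRMT1 against siPRMT8. With the replicate number as a block (replicate block) 20 and 20 passed against siSCR, 19 and 21 against D3, and 0 in both other comparisons. Of 1133 values of single genes under an alternative, 1087 kept the call and its direction, 46 lost the call and 0 reversed, with 33 of the 46 in fits without 1 array and 6 in 2-group fits, which have fewer samples. Each Hox gene had 1 probe set, so means over a gene's probe sets left the Hox values as they were. That alternative is no separate check of them, though its values are counted among the 1087. The 2-group fit of siPRMT1 and siSCR gave 15 in place of 19, without Hoxa7, Hoxb7, Hoxd8 and Hoxc9. The replicate block ended the siPRMT1 calls of Hoxa10, Hoxa13 and Hoxc8 against D3. With the lowest 25% of genes left out, the median over the remaining Hox genes was -0.87 in siPRMT1 and -0.78 in siPRMT8 against siSCR, in place of -0.30 and -0.47, since 10 of the 11 genes removed belong to paralogs 9 to 13. Of 336 medians under an alternative, 26 moved by more than the spread between replicates. Low signals limit what can be said of paralogs 10 to 13, and 3 arrays per group limit every interval.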

Other observations

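A probe set that the platform assigns to both Hoxb8 and Hoxb7 entered no comparison. Its log2 signals were 6.86, 6.64 and 7.0 in siPRMT1 and 6.56, 7.01 and 6.85 in siPRMT8 neurons, against 7.77, 8.70 and 8.54 in siSCR and 8.29, 8.10 and 7.94 in D3 neurons. All 6 knockdown arrays lay below all 6 control arrays, and siSCR replicate 1 was the lowest control. Hoxb7, through its own probe set, was also lower in both knockdowns, and which of these neighbouring genes the shared probe set reads cannot be told.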
